A study of Danio rerio with 4 samples.

Results

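Genes of serine synthesis, folate one-carbon metabolism, nucleotide synthesis and the methionine and glycine pathways were examined in fins of wild-type zebrafish (Danio rerio) of strain EK. The set was defined by 32 gene names, matched to the Ensembl genes of the deposited count tables. The tables held 27 of these names under 30 gene IDs, out of 32434 genes in all. For shmt2, mthfd2, gart, nme2b.1 and prps1a no gene ID of the tables carried the name, and they were not analysed here. The source of gene names held IDs for shmt2, mthfd2 and gart that the count tables did not list. Their absence therefore says nothing about their expression. Where a symbol lacked its paralog suffix, every ID of that symbol in the tables was taken. Thus mthfd1b, impdh1b and mat2aa each stand for a pair of IDs and ctps1a for 1. Another ID of the ctps1a symbol (ENSDARG00000098386) was absent from the tables. The names do not tell which ID of such a symbol is the named paralog. Those IDs are therefore given as mthfd1, impdh1, mat2a and ctps1 with their numbers.

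Regenerating fins had been amputated with a blade and were collected 4 days later, and uninjured fins had not been cut. Each group had 2 libraries, each from a pool of 10 whole fins, in which skin, bone, vessel and pigment cells are mixed. Library totals were 47858392 and 48247042 counts for regenerating fins and 43836649 and 34290386 for uninjured fins. Levels are given in CPM, counts relative to the library total after adjustment by the trimmed mean of M values (TMM), and are not divided by transcript length. The labels leave it unsaid whether the pools of a group came from different fish, and p-values here reflect only pool-to-pool spread, which may be technical.

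As background, cells make serine from an intermediate of glycolysis, and serine hands a carbon unit to folate. Folate carries that unit, in the cytosol and in mitochondria, to the purine ring and to thymidylate. Purines are built up to IMP and then split into AMP and GMP, pyrimidines are built up to UMP and then CTP, and salvage enzymes reuse free bases. The methionine cycle makes S-adenosylmethionine, the methyl donor of the cell, and glycine cleavage is a mitochondrial source of folate-bound carbon. Dividing cells, such as those of the fin blastema, draw on these routes for DNA and RNA. In zebrafish, purine synthesis also feeds the guanine crystals of iridophores and the pteridine pigments of xanthophores.

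All 30 gene IDs passed the filter on low counts. Regenerating fins had higher transcript levels of 16 of them (53.3%) and lower levels of 4 (13.3%), while 10 missed the threshold, a Benjamini-Hochberg adjusted p of 0.05 over 25594 genes from edgeR's quasi-likelihood test. Of all genes tested, 29.5% were called higher and 30.0% lower. A change of 2-fold or more was called upward for 10 IDs, against 15.0% of all genes, and downward for 3, against 16.1%. The regenerating pools were both higher than either uninjured pool for 20 IDs (40.3% of all genes). They were both below the uninjured pools for 6 (41.0% of all genes), and the pools overlapped for 4. Groups without overlap were thus the common case among all genes, so lack of overlap sets no single gene apart. The median log2 fold change of the 30 IDs was 0.45, against -0.024 for all genes tested. Their values ran from -2.62 to 2.41, so the set did not move as a block. In whole fins, fewer cells of a type and less RNA per cell cannot be told apart. Scaling by library totals alone moved the median of all genes by 0.21, and the share of called genes that were higher was then 61.8% in place of 49.6%. With that scaling 19 IDs were higher and 3 lower, against 8941 and 5524 of all 25594 genes tested.

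Markers of dividing cells moved in the same libraries. Of 15 cell division IDs, 14 rose (93.3%, against 29.5% of all genes tested) and 1 did not pass (median log2 fold change 3.39). The 15 IDs summed to 1124 to 1289 CPM in regenerating pools, against 191 to 225 CPM in uninjured pools. mki67, top2a and plk1 were among those that rose. Their part in the results on the metabolic genes was not tested.

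**Figure D1:**
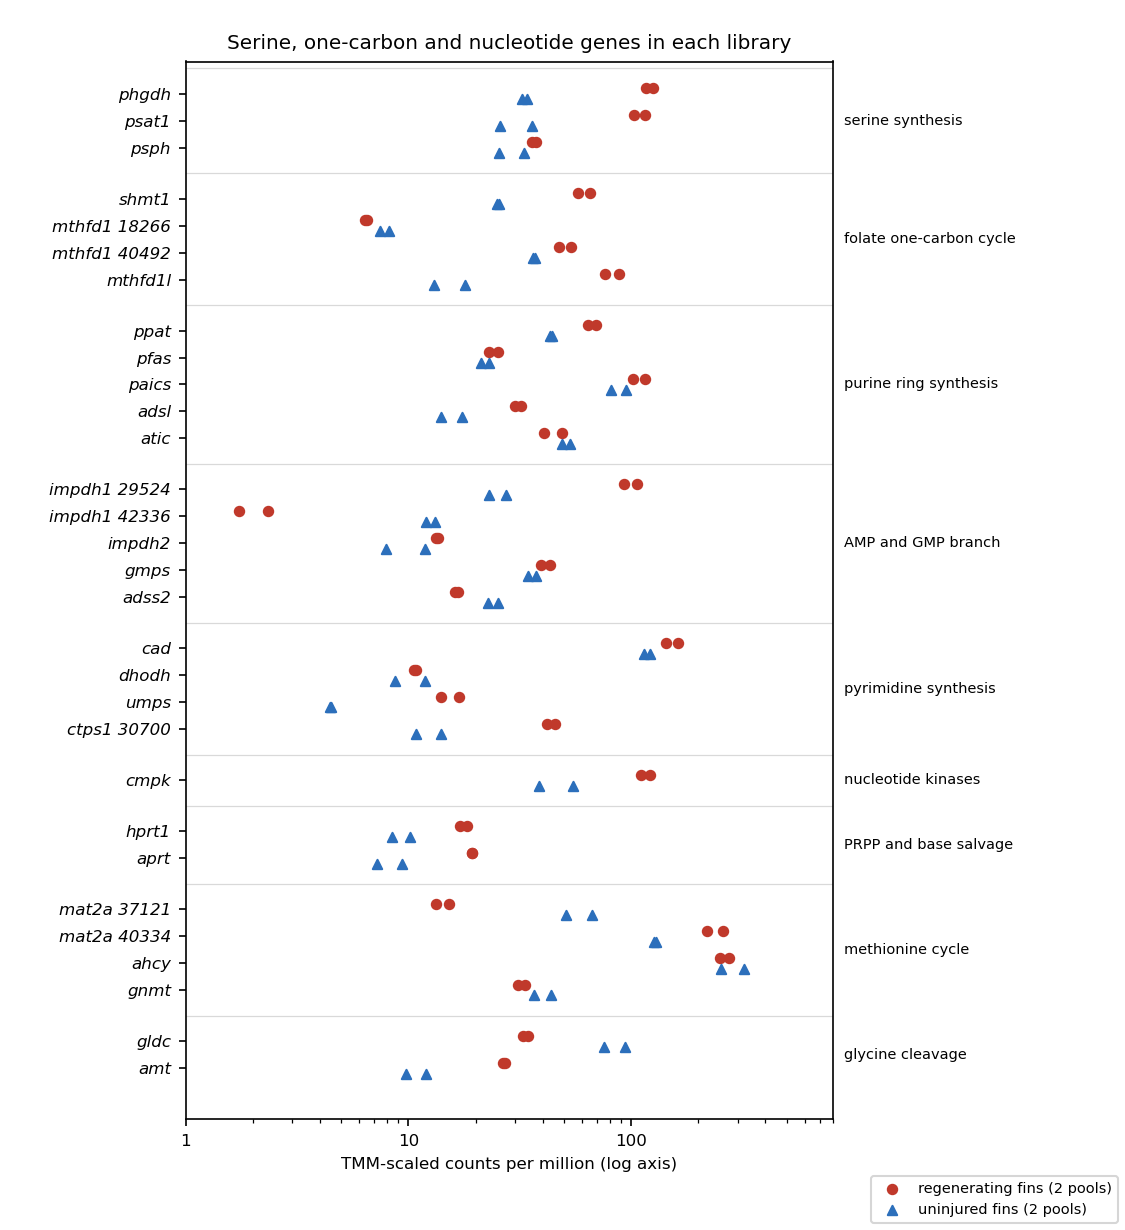
TMM-scaled CPM (log axis) of the 30 gene IDs in each library, grouped by role. Circles are the 2 pools of regenerating fins and triangles the 2 pools of uninjured fins, and the digits after a name are the last digits of its Ensembl ID. For phgdh, psat1, mthfd1l and impdh1 ENSDARG00000029524 the circles lie far to the right of the triangles, and for impdh1 ENSDARG00000042336, mat2a ENSDARG00000037121 and gldc far to the left.

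The early enzymes of serine synthesis rose together. phgdh (ENSDARG00000001873), the phosphoglycerate dehydrogenase that opens the pathway, had 125 and 116 CPM in regenerating pools, against 34.2 and 32.4 CPM in uninjured pools. Its pools were far apart between groups, with a fold change of 3.63 (log2 1.86 ± 0.13 SE, edgeR quasi-likelihood adjusted p = 1.25e-05). psat1, the phosphoserine aminotransferase that follows, had 116 and 103 CPM in regenerating pools, against 25.8 and 35.9 CPM in uninjured pools. That is 3.54-fold (log2 1.82 ± 0.17, adjusted p = 6.18e-05), also with no overlap. psph, the phosphatase of the last step, had 37.4 and 35.7 CPM in regenerating pools, against 33.1 and 25.5 CPM in uninjured pools. Its pools did not overlap, but the log2 fold change of 0.32 ± 0.15 did not pass (adjusted p = 0.0968). Without uninjured replicate 1 psph passed at 0.52 (adjusted p = 0.00961), and with scaling by library totals it passed at 0.54. Without uninjured replicate 2 its value was 0.17 (adjusted p = 0.289).

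Among folate enzymes, mthfd1l (ENSDARG00000042221) had the largest increase of all 30 IDs. It encodes the mitochondrial ligase that releases formate from folate for use in the cytosol. Its level was 88.3 and 75.9 CPM in regenerating pools, against 13.0 and 18.0 CPM in uninjured pools. The fold change was 5.31 (log2 2.41 ± 0.18, adjusted p = 1.96e-05), and 96.8% of all tested genes had a lower log2 fold change. shmt1, the cytosolic serine hydroxymethyltransferase that moves serine's carbon onto folate, had 65.5 and 57.6 CPM in regenerating pools, against 25.4 and 24.9 CPM in uninjured pools. It rose 2.45-fold (log2 1.29 ± 0.13, adjusted p = 6.72e-05), and its groups did not overlap.

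The IDs of mthfd1, the cytosolic enzyme that interconverts carbon-bearing folates and takes up formate, moved less. ENSDARG00000040492 had 53.6 and 47.4 CPM in regenerating pools, against 36.8 and 36.3 CPM in uninjured pools (log2 fold change 0.46 ± 0.12, adjusted p = 0.0111). This call was lost without regenerating replicate 1 (log2 fold change 0.38, adjusted p = 0.107). ENSDARG00000018266 had 6.38 and 6.50 CPM in regenerating pools, against 7.45 and 8.22 CPM in uninjured pools, and did not pass (log2 fold change -0.28 ± 0.14, adjusted p = 0.124).

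The folate partners, a list of carriers and enzymes of the same cycle, also held more genes that rose than fell. Of 17 tested IDs 11 rose (64.7%), 1 fell (5.88%) and 5 missed the threshold (median log2 fold change 0.57). Among all genes tested, 29.5% were higher and 30.0% lower. With a filter of at least 10 CPM in 2 libraries, 5 of 11 tested IDs rose and 1 fell. Of all 12466 genes tested under that filter, 4384 were higher and 4461 lower. TYMS, thymidylate synthase, had 52.4 and 43.6 CPM in regenerating pools, against 6.66 and 8.92 CPM in uninjured pools (log2 fold change 2.62 ± 0.18, adjusted p = 1.25e-05). dhfr, the dihydrofolate reductase that returns the folate used by TYMS, rose by 1.98 ± 0.18 on the log2 scale (adjusted p = 5.35e-05). ALDH1L2, a mitochondrial formyl-folate dehydrogenase, rose by 2.96 ± 0.25 (adjusted p = 3.58e-05), with 268 and 272 counts in regenerating pools against 19 and 29 counts in uninjured pools. The gene that fell was an ID of SLC25A32, the mitochondrial folate carrier (ENSDARG00000089791, log2 fold change -0.64 ± 0.13, adjusted p = 0.00363), a call lost with scaling by library totals (adjusted p = 0.0532). Its other ID (ENSDARG00000026835), named here after its values were seen, rose 2.15-fold (adjusted p = 0.00148).

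**Figure D2:**
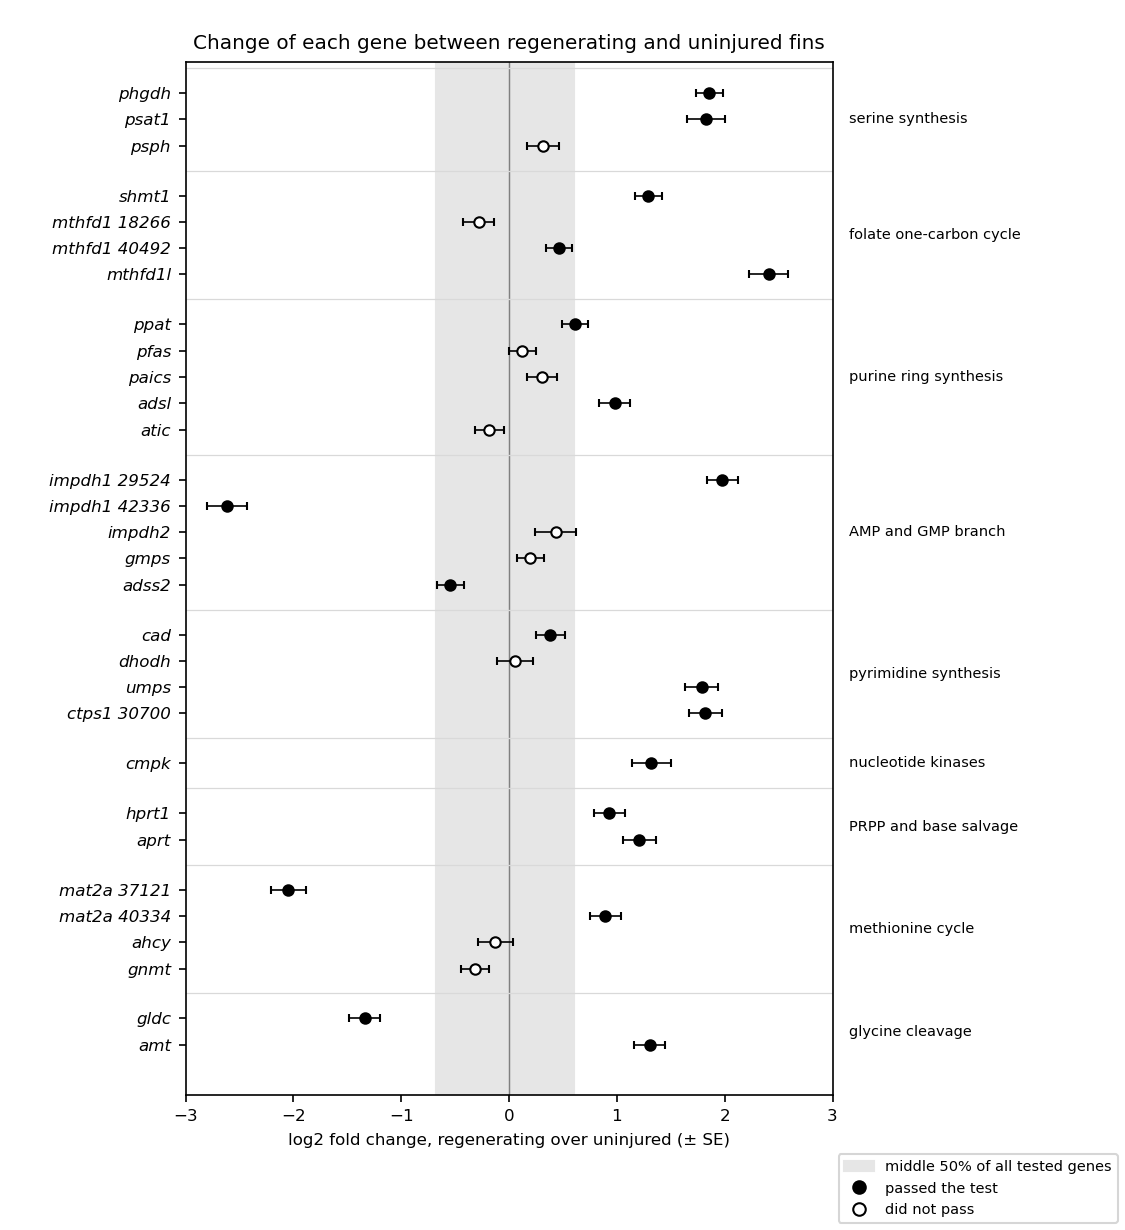
Log2 fold change of each gene ID, regenerating over uninjured, with its standard error, grouped by role. Filled points passed the test, open points did not, and the grey band spans the quartiles of all tested genes (-0.68 to 0.60). phgdh, psat1, mthfd1l, umps and ctps1 lie right of the band, most purine ring genes inside it, and the IDs of impdh1 and of mat2a on opposite sides of zero.

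Genes of purine ring synthesis changed less. Of 5 IDs, 2 rose (40%), 0 fell and 3 missed the threshold, against 29.5% higher and 30.0% lower among all genes tested. ppat, the amidotransferase of the committed step, had 69.4 and 63.8 CPM in regenerating pools, against 43.3 and 44.0 CPM in uninjured pools. Its rise of 1.52-fold (log2 0.61 ± 0.12, adjusted p = 0.00251) exceeded the narrow spread between pools. adsl, adenylosuccinate lyase, which acts in the ring pathway and again in the AMP branch, had 32.1 and 30.1 CPM in regenerating pools, against 17.5 and 14.1 CPM in uninjured pools. It rose 1.97-fold (log2 0.98 ± 0.14, adjusted p = 5.18e-04), and passed 2-fold without uninjured replicate 1 (log2 1.15), without regenerating replicate 2 (log2 1.03) and with scaling by library totals (log2 1.20).

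The other ring enzymes did not pass. paics had 115 and 102 CPM in regenerating pools, against 94.2 and 81.2 CPM in uninjured pools (log2 fold change 0.31 ± 0.14, adjusted p = 0.0846). It passed without uninjured replicate 1 (0.42, adjusted p = 0.0319) and with scaling by library totals (0.52), and had 0.24 (adjusted p = 0.184) without uninjured replicate 2. For pfas, which adds a nitrogen to the growing ring, pools of the groups overlapped, at 25.1 and 22.9 CPM in regenerating and 21.2 and 23.0 CPM in uninjured pools (log2 fold change 0.12 ± 0.12). Overlap was also seen for atic, which closes the ring to IMP, at 48.9 and 40.5 CPM in regenerating and 52.9 and 48.7 CPM in uninjured pools. The log2 fold change of -0.18 ± 0.14 (adjusted p = 0.270) turned to 0.024 with scaling by library totals.

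Downstream of IMP, the largest changes were in the gene IDs of impdh1, IMP dehydrogenase, which commits IMP to GMP, and they went in opposite directions. ENSDARG00000029524 had 106 and 93.1 CPM in regenerating pools, against 23.1 and 27.3 CPM in uninjured pools, a rise of 3.94-fold (log2 1.98 ± 0.14, adjusted p = 1.71e-05). ENSDARG00000042336 had 1.74 and 2.34 CPM in regenerating pools, against 13.1 and 12.0 CPM in uninjured pools. It was 6.14-fold lower in regenerating fins (log2 -2.62 ± 0.19, adjusted p = 1.59e-05), the largest decrease of the 30 IDs. Of the reads counted on either ID, ENSDARG00000029524 held 98.4% and 97.5% in regenerating pools, against 63.7% and 69.5% in uninjured pools. The exact (Clopper-Pearson) 95% intervals of these shares reached from 97.1% to 98.7% in regenerating and from 61.1% to 72.0% in uninjured pools, and cover counting error only. Shares were not corrected for transcript length, and reads of close paralogs may have been divided unevenly between the IDs.

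impdh2, the third IMP dehydrogenase ID, had 13.2 and 13.5 CPM in regenerating pools, against 7.95 and 11.9 CPM in uninjured pools. It did not pass (log2 fold change 0.43 ± 0.19, adjusted p = 0.0816), but did without uninjured replicate 2 (0.78, adjusted p = 0.00243) and with scaling by library totals (0.62, adjusted p = 0.0350). Without uninjured replicate 1 its value was 0.17 (adjusted p = 0.352). gmps, which turns the product of IMP dehydrogenase into GMP, had 43.3 and 39.2 CPM in regenerating pools, against 34.4 and 37.5 CPM in uninjured pools (log2 fold change 0.20 ± 0.12, adjusted p = 0.198). adss2, adenylosuccinate synthase of the AMP branch, had 16.2 and 16.6 CPM in regenerating pools, against 22.7 and 25.3 CPM in uninjured pools. It fell by 0.55 ± 0.12 on the log2 scale (adjusted p = 0.00551), a call lost with scaling by library totals (adjusted p = 0.111). adssl, a related gene of the partner list named after its values were seen, rose by 1.14 ± 0.12 (adjusted p = 1.02e-04).

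**Figure D3:**
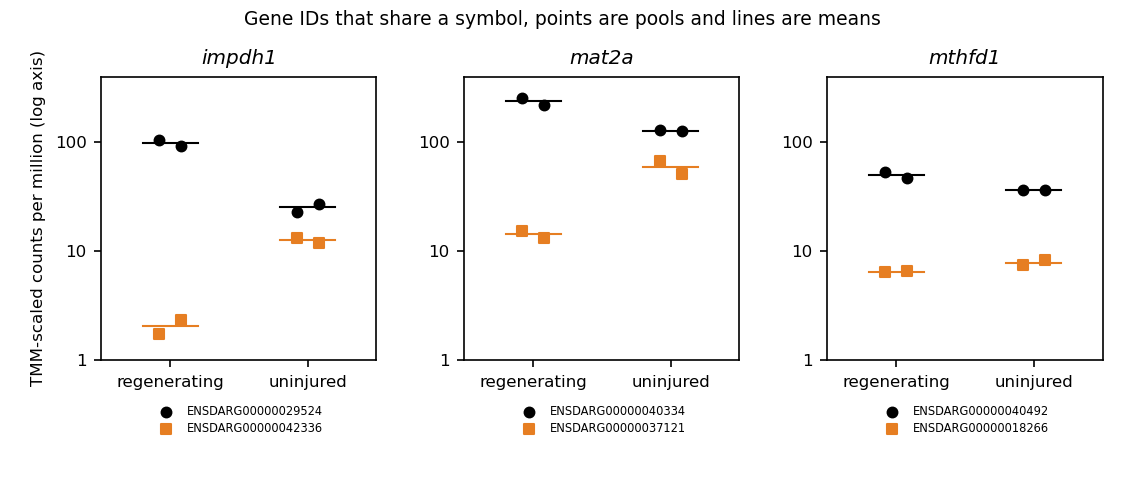
TMM-scaled CPM (log axis) of the paired gene IDs of impdh1, mat2a and mthfd1, with regenerating fins left of uninjured fins. Points are pools and lines are means of 2. The distance between the IDs is wider in regenerating fins for each symbol, most for impdh1, where the lower ID averaged 2.04 CPM in regenerating and 12.6 CPM in uninjured fins.

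Markers of pigment cells, some of which use purines in zebrafish, were read in the same libraries. Of all genes tested, 29.5% were called higher and 30.0% lower. The shares higher and lower were 16.7% and 58.3% for iridophore, 16.7% and 33.3% for xanthophore and 20% and 30% for melanophore markers. Of 12 iridophore marker IDs, 2 rose, 7 fell and 3 did not pass (median log2 fold change -0.51), and their summed level was 68.7 to 72.3 CPM in regenerating pools, against 103 to 112 CPM in uninjured pools. The defining iridophore gene pnp4a had 0.859 and 1.01 CPM in regenerating pools, against 3.31 and 1.94 CPM in uninjured pools. The other, ltk, did not pass (-0.18 ± 0.16) and had 0.034 with scaling by library totals. Named after their values were seen, IDs of ALX4 (ENSDARG00000088332) and EDNRB (ENSDARG00000053498) rose by 1.44 ± 0.14 and 0.51 ± 0.17. The other ID of each symbol fell, by 0.85 ± 0.15 for ALX4 and 1.58 ± 0.13 for EDNRB. FHL2 and SLC24A4 also have paired IDs in the list. The names do not tell which ID of such a pair is the marker, so the counts include IDs that may not be markers. Among iridophore IDs matched exactly, pnp4a and apoda.1 (-2.64 ± 0.27) fell, while ltk and GPNMB (0.34 ± 0.17) did not pass. On leaving out 1 library, 1 to 2 iridophore IDs rose and 5 to 7 fell. Of 6 xanthophore marker IDs, 1 rose, 2 fell and 3 did not pass (median -0.34). The 6 IDs summed to 173 to 200 CPM in regenerating pools and 240 to 256 CPM in uninjured pools. Most of that sum was MYCBP2, with 138 and 132 CPM in regenerating pools against 205 and 189 CPM in uninjured pools. The sum therefore follows mainly this gene, and whether MYCBP2 is confined to xanthophores in fins was not tested. The xanthophore call that rose, slc2a15a, was lost without regenerating replicate 1 (adjusted p = 0.191) and without uninjured replicate 2 (0.0690). Among those that fell, MYCBP2 was lost with scaling by library totals (adjusted p = 0.0795) and without regenerating replicate 2 (0.0677). The xanthophore gene aox5 did not pass (0.30 ± 0.26), with -0.22 without regenerating replicate 1 and 0.69 (adjusted p = 0.00992) without regenerating replicate 2, and gch2 was not analysed here. Of 10 melanophore marker IDs, 2 rose, 3 fell and 5 did not pass (median -0.26). They summed to 68.1 to 88.8 CPM in regenerating pools and 85.6 to 90.3 CPM in uninjured pools. Named after their values were seen, TYRP1 (ENSDARG00000029204) and SLC24A5 rose by 1.08 ± 0.31 and 0.43 ± 0.14. The other IDs of TYRP1 and MITF did not pass (-0.26 ± 0.15 and -0.16 ± 0.19). The melanophore genes that fell, MITF (ENSDARG00000003732), SLC45A2 and dct, all lost their calls with scaling by library totals (adjusted p = 0.0740, 0.0516 and 0.181). Without regenerating replicate 2 the calls of MITF (adjusted p = 0.107) and SLC45A2 (0.0793) were lost, and without uninjured replicate 1 that of SLC45A2 (0.0792). dct (-0.65 ± 0.22) also lost its call with the DESeq2 test and without regenerating replicate 1 or either uninjured replicate, and pmela did not pass (-0.27 ± 0.23), with -0.71 (adjusted p = 0.0110) without regenerating replicate 1 and 0.082 without regenerating replicate 2. The part of pigment cells in the purine results was not tested.

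The partner list of purine salvage, breakdown and phosphate transfer held changes of both signs. It shares pnp4a with the iridophore list and XDH with the xanthophore list, so these lists are not independent. Of 24 tested IDs, 9 rose (37.5%), 5 fell (20.8%) and 10 missed the threshold (median log2 fold change -0.013). All genes tested also moved both ways, with 29.5% higher and 30.0% lower. DCK, the deoxycytidine kinase of deoxynucleoside salvage, had 16.0 and 13.9 CPM in regenerating pools, against 2.62 and 2.99 CPM in uninjured pools (log2 fold change 2.41 ± 0.16, adjusted p = 1.22e-05). ITPA, which clears inosine triphosphate, rose by 1.61 ± 0.16, and an ADK ID (ENSDARG00000039429, adenosine kinase) by 1.28 ± 0.13. The other ADK ID (ENSDARG00000095947), named after its values were seen, fell by 0.63 ± 0.13 (adjusted p = 0.00357), a call lost with scaling by library totals (adjusted p = 0.0612). With that scaling 2 IDs of the list fell in place of 5, and 5524 of all 25594 genes fell in place of 7689. AK1, an adenylate kinase known from muscle, fell by 2.06 ± 0.22 (adjusted p = 1.07e-04), with 63.3 and 61.0 CPM in regenerating pools against 320 and 197 CPM in uninjured pools.

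In pyrimidine synthesis the later enzymes rose most. umps, which completes UMP, had 16.8 and 14.0 CPM in regenerating pools, against 4.49 and 4.43 CPM in uninjured pools (3.45-fold, log2 1.79 ± 0.15, adjusted p = 3.64e-05). ctps1 (ENSDARG00000030700), the CTP synthase, had 45.4 and 42.0 CPM in regenerating pools, against 10.8 and 14.0 CPM in uninjured pools (3.53-fold, log2 1.82 ± 0.15, adjusted p = 3.44e-05). Neither gene had overlapping groups. cad, the multifunctional enzyme that opens the route, had 163 and 144 CPM in regenerating pools, against 121 and 114 CPM in uninjured pools. Its log2 fold change of 0.38 ± 0.13 passed (adjusted p = 0.0351), but not without regenerating replicate 1 (0.30, adjusted p = 0.235), regenerating replicate 2 (0.48, adjusted p = 0.0648) or uninjured replicate 2 (0.37, adjusted p = 0.0554), nor under a filter of 10 CPM in 2 libraries (0.27, adjusted p = 0.0793).

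dhodh, the mitochondrial step between cad and umps, had 10.8 and 10.6 CPM in regenerating pools, between the 11.9 and 8.72 CPM of uninjured pools. The log2 fold change was 0.054 ± 0.17 and was negative without uninjured replicate 2 (-0.12) and under the 10 CPM filter (-0.054). cmpk, the kinase that phosphorylates UMP and CMP, had 122 and 111 CPM in regenerating pools, against 38.4 and 54.6 CPM in uninjured pools. It rose 2.50-fold (log2 1.32 ± 0.18, adjusted p = 3.27e-04), with uninjured pools further apart than regenerating ones.

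Genes that break pyrimidines down were among those that fell in the pyrimidine partner list. Of its 18 tested IDs, 4 rose (22.2%), 8 fell (44.4%) and 6 did not pass (median log2 fold change -0.12). For all genes tested the shares were 29.5% higher and 30.0% lower. DPYS, dihydropyrimidinase, had 7.71 and 7.40 CPM in regenerating pools, against 19.6 and 18.6 CPM in uninjured pools (-1.34 ± 0.13, adjusted p = 6.37e-05). Other genes of the breakdown route, named after their values were seen, had log2 fold changes of -0.90 ± 0.15 and -0.86 ± 0.15 for the DPYD IDs (ENSDARG00000010267 and ENSDARG00000086853), -0.99 ± 0.20 for UPB1 and -1.29 ± 0.21 for UPP1, and each fell. By the naming rule, uckl1b, a uridine kinase-like gene, and nme2a, a nucleoside diphosphate kinase gene, fell by 0.84 ± 0.12 and 0.91 ± 0.15. DCTD, the dCMP deaminase that supplies thymidylate synthesis, rose by 1.25 ± 0.16 (adjusted p = 2.44e-04). The uridine-cytidine kinase genes UCK2 (ENSDARG00000006074) and uck2b, of pyrimidine salvage, rose by 0.91 ± 0.19 and 0.95 ± 0.14. In the same list uckl1a rose by 1.05 ± 0.23, UPRT fell by 0.73 ± 0.18 and UCK1 did not pass (0.14 ± 0.18). These IDs were also named after their values were seen.

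Both base salvage genes rose. aprt, which reuses adenine, had 19.2 CPM in each regenerating pool, against 7.24 and 9.39 CPM in uninjured pools (2.31-fold, log2 1.21 ± 0.16, adjusted p = 2.66e-04). hprt1, which reuses hypoxanthine and guanine, had 17.0 and 18.3 CPM in regenerating pools, against 8.40 and 10.2 CPM in uninjured pools (1.91-fold, log2 0.93 ± 0.14, adjusted p = 7.36e-04). Neither gene's groups overlapped.

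In the methionine cycle the IDs of mat2a, methionine adenosyltransferase, moved in opposite directions, as those of impdh1 did. ENSDARG00000040334 had 258 and 219 CPM in regenerating pools, against 130 and 127 CPM in uninjured pools, a rise of 1.86-fold (log2 0.89 ± 0.14, adjusted p = 8.40e-04). ENSDARG00000037121 had 15.2 and 13.3 CPM in regenerating pools, against 66.9 and 51.0 CPM in uninjured pools. It was 4.14-fold lower in regenerating fins (log2 -2.05 ± 0.16, adjusted p = 2.64e-05). Of the reads on either ID, ENSDARG00000040334 held 94.4% and 94.3% in regenerating pools, against 66.0% and 71.4% in uninjured pools. Together the IDs had 273 and 232 CPM in regenerating pools, against 197 and 178 CPM in uninjured pools.

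Enzymes that use or recycle the methyl donor did not pass. ahcy, which clears S-adenosylhomocysteine, had 275 and 250 CPM in regenerating pools, overlapping the 320 and 252 CPM of uninjured pools. Its log2 fold change of -0.13 ± 0.17 (adjusted p = 0.534) became 0.061 without uninjured replicate 1 and 0.091 with scaling by library totals. gnmt, the glycine methyltransferase that is abundant in vertebrate liver, had 33.3 and 31.2 CPM in regenerating pools, against 36.6 and 43.5 CPM in uninjured pools (log2 fold change -0.31 ± 0.13, adjusted p = 0.0699). It passed without uninjured replicate 1 (-0.43, adjusted p = 0.0205) and under the 10 CPM filter (-0.42, adjusted p = 0.0216), and had -0.15 (adjusted p = 0.344) without uninjured replicate 2 and -0.11 with scaling by library totals. The liver marker gene fabp10a had 0.112 to 0.220 CPM in regenerating and 0.131 to 0.205 CPM in uninjured pools and was too low to test. Of 7 tested liver and gut marker IDs, 2 rose (28.6%), 3 fell (42.9%) and 2 did not pass (median -0.52). For all genes tested the shares were 29.5% higher and 30.0% lower. The listed liver and gut IDs summed to 3.92 to 4.62 CPM in regenerating and 5.14 to 5.33 CPM in uninjured pools. Among those that fell, the TTR call was lost without any 1 of the 4 libraries (adjusted p = 0.0529 to 0.0863), with scaling by library totals (0.0611) and with the DESeq2 test (0.123). Among those that rose, CP was lost without regenerating replicate 1 (adjusted p = 0.0527), and 0 liver and gut IDs then rose, against 1 without either uninjured replicate.

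Partners of the methionine cycle and of polyamine synthesis were mostly below the threshold. Of 14 tested IDs, 4 rose (28.6%), 1 fell (7.14%) and 9 did not pass (median log2 fold change 0.055). The share that rose was near the 29.5% of all genes tested, of which 30.0% were lower. Without either regenerating replicate 2 rose, and without uninjured replicate 2, 3 rose and 4 fell. A CTH ID (ENSDARG00000074301), cystathionine gamma-lyase of the transsulfuration route, rose by 1.62 ± 0.12 (adjusted p = 2.02e-05). It had 40.9 and 40.7 CPM in regenerating pools, against 12.9 and 13.7 CPM in uninjured pools. The other CTH ID (ENSDARG00000032206), named after its values were seen, did not pass (-0.12 ± 0.16). SRM, spermidine synthase, rose by 1.52 ± 0.19 (adjusted p = 2.60e-04). MTRR, which keeps methionine synthase active, rose by 0.47 ± 0.13, and this call was lost without regenerating replicate 1 (adjusted p = 0.0934) and without regenerating replicate 2 (adjusted p = 0.0529). AMD1, which decarboxylates S-adenosylmethionine for polyamines, fell by 0.75 ± 0.20 (adjusted p = 0.0109), and by 0.37 without uninjured replicate 2.

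Glycine cleavage genes moved in opposite directions. gldc, the decarboxylase that opens the reaction, had 32.5 and 34.3 CPM in regenerating pools, against 75.1 and 93.7 CPM in uninjured pools. It was 2.53-fold lower in regenerating fins (log2 -1.34 ± 0.14, adjusted p = 1.04e-04). amt, the aminomethyltransferase that passes glycine's carbon to folate, had 26.5 and 27.2 CPM in regenerating pools, against 9.73 and 12.0 CPM in uninjured pools. It rose 2.47-fold (log2 1.31 ± 0.14, adjusted p = 1.16e-04), and the groups did not overlap for either gene. The other components, in the folate partner list and named after their values were seen, rose, with gcsha at 1.47 ± 0.17 and DLD, which other mitochondrial enzymes share, at 0.40 ± 0.14. The DLD call was lost without regenerating replicate 1 (adjusted p = 0.232), regenerating replicate 2 (0.0577) or uninjured replicate 2 (0.0915).

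Genes of serine and glycine supply and of the ATF4 response were compared because ATF4, a transcription factor of amino acid shortage, is known in mammals to drive PHGDH, PSAT1 and other serine genes. Of 16 tested IDs, 5 rose (31.2%), 7 fell (43.8%) and 4 did not pass (median log2 fold change -0.24). For all genes tested the shares were 29.5% higher and 30.0% lower. SLC1A4, a transporter of serine and other neutral amino acids, had 22.3 and 20.4 CPM in regenerating pools, against 0.446 and 0.294 CPM in uninjured pools. This is 56.8-fold (log2 5.83 ± 0.21, adjusted p = 1.67e-06), and it rests on 17 and 10 counts in uninjured pools. The glycine transporter gene SLC6A9 fell by 1.47 ± 0.12 (adjusted p = 3.41e-05). The stress genes CHAC1 and ATF3 fell by 2.01 ± 0.14 (adjusted p = 1.44e-05) and 1.59 ± 0.22 (adjusted p = 4.18e-04). TRIB3, sesn2, slc7a11 and SDSL did not pass (-0.27 ± 0.14, 0.16 ± 0.14, 0.51 ± 0.22 and -0.21 ± 0.45). The rest of the called IDs, outside the naming rule, are given to complete the list. atf4b, the only ATF4 gene among the tested IDs of the list, fell by 0.44 ± 0.14 (adjusted p = 0.0230). The transcription factor genes DDIT3, CEBPB and cebpg fell by 0.94 ± 0.14, 2.47 ± 0.42 and 0.43 ± 0.14. The atf4b and cebpg calls were lost without either regenerating replicate (adjusted p = 0.0750 and 0.184 for atf4b, 0.103 and 0.119 for cebpg) and with scaling by library totals, and that of cebpg also without uninjured replicate 2 (0.142). Those that rose were ASNS, slc3a2a, SLC3A2 and srr. ASNS, asparagine synthetase, rose by 0.90 ± 0.13. slc3a2a and SLC3A2, the heavy chain of amino acid transporters, rose by 1.08 ± 0.19 and 0.89 ± 0.16. srr, serine racemase, had 288 and 393 counts in regenerating pools against 4 and 2 counts in uninjured pools. The part of ATF4 in the serine results was not tested.

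**Figure D4:**
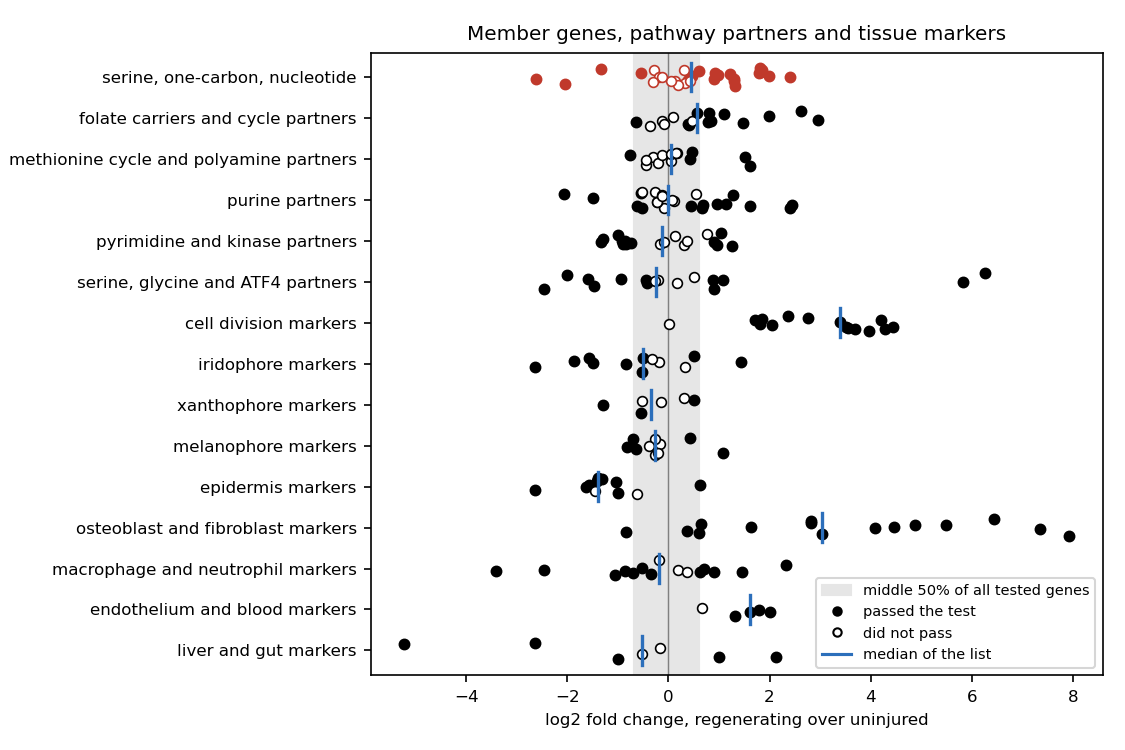
Log2 fold change, regenerating over uninjured, of the tested members (red), of the pathway partners and of the marker lists. Filled points passed the test, blue bars are list medians and the grey band spans the quartiles of all tested genes. The members' median of 0.45 lies inside the band. It is below those of cell division (3.39) and of osteoblast and fibroblast markers (3.04), and above that of epidermis (-1.40).

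Markers of other cell types were also read in the same libraries, where 29.5% of all genes tested were higher and 30.0% lower. Of 15 osteoblast and fibroblast IDs, 14 rose and 1 fell (median 3.04). Their summed level was 38206 to 44785 CPM in regenerating and 2500 to 2574 CPM in uninjured pools. sp7 was at 2.82 ± 0.16, and the ID that fell was bglap (-0.83 ± 0.14). Of 11 epidermis IDs, 1 rose, 8 fell and 2 did not pass (median -1.40), with krt4 and tp63 among those that fell. The 11 IDs summed to 27571 to 31220 CPM in regenerating and 67133 to 81600 CPM in uninjured pools. Most of that sum was krt5, which did not pass (-1.45 ± 0.70). krt5 had 24334 and 20881 CPM in regenerating pools, against 69109 and 54612 CPM in uninjured pools. The epidermis ID that rose, col17a1b, lost its call without regenerating replicate 1 (adjusted p = 0.155), without regenerating replicate 2 (0.0888) and with a replicate block (0.0637). Of 5 endothelium and blood IDs tested, 4 rose and 1 did not pass (median 1.62), with summed levels of 180 to 226 CPM in regenerating pools and 60.6 to 67.7 CPM in uninjured pools. Of these, cdh5 rose by 1.32 ± 0.33, a call lost without regenerating replicate 1 (adjusted p = 0.0641). Of 15 macrophage and neutrophil IDs, 5 rose, 7 fell and 3 did not pass (median -0.19, summed 271 to 366 CPM in regenerating and 248 to 330 CPM in uninjured pools), and the MPEG1 IDs moved both ways. Without regenerating replicate 1, 3 of these rose and 6 fell. The defining genes kdrl and mpx were not analysed here. The part of these cell types in the results on the metabolic genes was not tested.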

How the data were processed

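RNA of whole fins was sequenced as single-end Illumina libraries, per the labels' protocols. The deposited tables hold raw counts of reads per Ensembl gene. The submitters' processing notes name CASAVA, TopHat, edgeR and build Zv9. Not given in the sources used here are versions, counting program, annotation and strand, so reads of close paralogs, overlapping or antisense genes cannot be told apart. Pools of 1 group varied beyond sampling noise (chi-square per degree of freedom 17.6 and 37.1, against 445 to 617 between groups), and no library was a repeat of another.

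Counts were filtered with filterByExpr (minimum count 10, total 15), scaled by TMM (factors 0.870 to 1.11) and tested with edgeR 4.0.16 (quasi-likelihood, non-legacy estimation, group only; R 4.3.3) with Benjamini-Hochberg adjustment. Standard errors are the log2 fold change divided by the root of the F statistic. Values with ± in the text are such standard errors unless called otherwise. DESeq2 1.42.0 was an alternative. Figures used matplotlib 3.10.9. The fit was tested on simulated counts with known changes. It recovered 17.9% of 67 changes of 1.5-fold, 74.6% of 67 of 2-fold and 97% of 66 of 4-fold. No other genes of the 25594 simulated were changed, whereas in the fins 7553 genes were called higher and 7689 lower. These recovery rates therefore do not give the power of the fit on the fins. Of 132 calls on the simulated counts, 6 (4.55%) were of unchanged genes.

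Symbols came from a table that named 20769 of 32434 genes. Of the 32 member names, 23 matched exactly in any case and 4 without a paralog suffix. The members and the lists were chosen with earlier results of these data known. Named in full are all members and, from each partner list, up to 3 called genes with the smallest adjusted p in the commoner direction and 1 in the other, unless the text says otherwise. Alternatives changed scaling, filter, estimation, test, symbol matching and a replicate block, or left out 1 library. No sequence table was used here.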

Additional observations from a re-analysis of the deposited data

How the results depend on the processing

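The member counts of 16 higher and 4 lower were the same with DESeq2 size factors, without a filter, with legacy estimation and with the DESeq2 test. On leaving out 1 library, the member counts were not the same in every fit. The median log2 fold change of the members was then 0.42 to 0.57, against -0.038 to 0.015 for all genes tested. With exact symbols only, 12 of 23 tested IDs were higher and 2 lower, as the 6 paired IDs and ctps1 leave the set. With at least 10 CPM in 2 libraries, 15 of 29 tested members were higher and 5 lower, as cad lost its call and gnmt gained a call. Of all genes 4384 were then higher and 4461 lower, since only 12466 genes were tested. The replicate numbers of the labels are not said to pair pools, and deviations of same-numbered pools had a correlation of -0.0027 across genes. With a replicate block 17 members were higher and 4 lower, and 7473 of all genes were higher and 7623 lower; impdh2 was the added member (log2 fold change 0.46, adjusted p = 0.0469). Over all member genes and alternatives, 309 values kept direction and side of the threshold, 6 lost a call, 9 gained one and 5 changed sign. The sign changes were atic at 0.024 and ahcy at 0.091 with scaling by library totals, dhodh at -0.054 with the 10 CPM filter, and, on leaving out 1 library, ahcy (-0.26 to 0.061) and dhodh (-0.12 to 0.30). Among marker genes that did not pass, ltk was at 0.034 with scaling by library totals, and on leaving out 1 library aox5 ran from -0.22 to 0.69 and pmela from -0.71 to 0.082. The cause of these changes was not tested. With 2 pools a group, members that did not pass are not shown to be unchanged.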
